A study of Mus musculus with 8 samples.

Results

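Collagen genes were examined in primitive erythroid precursors and epithelial cells captured by laser from the mouse yolk sac. A gene was taken as a member if its symbol on the array read Col, a number, a and a number. This gave 36 of the 12393 genes measured, read by 58 probe sets, and the choice did not use their values. The mice were of the FVB/N strain at embryonic day 9.5, with no genetic change or treatment named in the labels. The 8 samples formed 4 pairs, each of 1 erythroid and 1 epithelial capture, and each sample had its own Affymetrix array. Per the labels, both captures of a pair came from the same slides, a replicate pooled tissue of 2 to 4 yolk sacs taken from 2 litters, and the 2-cycle amplification started from 10 to 39 ng of RNA. Capturing 1 erythroid cell took 2 to 3 pulses of the laser, and 1 epithelial cell took 1.

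A collagen is a protein of 3 chains wound into a triple helix. Chains are named by type and number, so Col1a1 and Col1a2 encode the chains of type I. Fibrillar collagens (types I, II, III, V and XI) build the fibrils of connective tissue and are made mainly by mesenchymal cells. Type IV forms the sheet-like network of basement membranes, on which epithelia and vessels sit. Type VI makes beaded filaments near cells, and other types coat fibrils, anchor membranes or span the cell membrane. The yolk sac wall holds a visceral endoderm epithelium, a mesoderm layer with mesenchyme and mesothelium, and vessels with blood cells between them.

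Of the 6 fibrillar genes tested, 4 were called higher in the erythroid captures, against 6.03% of all genes tested. No collagen gene was called when pair 3 or pair 4 was left out, or in pairs 1 and 2 alone. The main basement membrane chains Col4a1 and Col4a2 differed by 0.09 and 0.06 on the log2 scale. Promoters of 4 genes are shown, the called genes Col3a1, Col5a1 and Col4a5 and the type I gene Col1a2, which did not pass, to show how their start regions differ in letters. They were chosen after the values were seen. RefSeq promoters (build GRCm38.p6) were held for 27 of the 36 genes. Col1a2 encodes the second chain of type I, Col3a1 the chain of type III, Col5a1 the chain that nucleates fibrils and Col4a5 a chain of a minor type IV network. The plus strand is printed 5′ to 3′ and ends at the base before the gene's first annotated base, so only intergenic sequence is shown. Capitals mark the letters TATAAA of a classical core promoter box, CCAAT of an upstream box bound by the NF-Y factor, and GGGCGG of a box bound by Sp proteins, on either strand.
Col1a2, chr6:4505368-4505617: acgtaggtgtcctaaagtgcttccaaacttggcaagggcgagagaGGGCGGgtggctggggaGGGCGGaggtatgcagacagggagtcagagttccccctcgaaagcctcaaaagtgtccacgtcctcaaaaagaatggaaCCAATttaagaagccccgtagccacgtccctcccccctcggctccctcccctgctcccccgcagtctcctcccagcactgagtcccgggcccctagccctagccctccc
Col3a1, chr1:45311288-45311537: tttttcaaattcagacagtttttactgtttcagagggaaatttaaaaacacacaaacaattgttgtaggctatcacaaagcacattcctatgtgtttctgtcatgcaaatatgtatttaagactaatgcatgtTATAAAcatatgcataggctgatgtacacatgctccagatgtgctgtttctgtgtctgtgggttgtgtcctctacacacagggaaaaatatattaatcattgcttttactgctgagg
Col5a1, chr2:27886175-27886380: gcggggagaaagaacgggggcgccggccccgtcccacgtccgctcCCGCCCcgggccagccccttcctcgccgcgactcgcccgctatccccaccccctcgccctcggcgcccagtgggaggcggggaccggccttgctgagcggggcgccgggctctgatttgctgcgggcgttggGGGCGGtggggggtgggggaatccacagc
Col4a5, chrX:141475169-141475369: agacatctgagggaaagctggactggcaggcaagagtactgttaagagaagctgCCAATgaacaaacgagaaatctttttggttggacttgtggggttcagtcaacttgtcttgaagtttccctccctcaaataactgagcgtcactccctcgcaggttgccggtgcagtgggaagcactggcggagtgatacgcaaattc

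The 4 windows differed in base composition and in the motifs they held. GC content was 62% for Col1a2, 35.2% for Col3a1, 77.7% for Col5a1 and 49.8% for Col4a5. TATAAA occurred in the window of Col3a1 and in 12.4% of 32851 promoter windows of 250 bases (both strands). CCAAT occurred in those of Col1a2 and Col4a5 and in 33.8% of all windows, and GGGCGG in those of Col1a2 and Col5a1 and in 32.7%. The printed windows of Col5a1 and Col4a5 hold 206 and 201 bases, so they had less room for a match, and the 250-base window of Col4a5 also held GGGCGG. The motifs do not overlap each other, and a match is a description of letters, not a site in use. Among the 27 collagen genes with a promoter, 5 held TATAAA, 12 CCAAT and 15 GGGCGG in a 250-base window.

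Several members lie side by side in the genome. The models of Col4a1 (chr8:11198423-11312889, minus strand) and Col4a2 (chr8:11312805-11449287, plus strand) run in opposite directions and overlap by 85 bases at their starts. Col4a3 and Col4a4 overlap by 114 bases on chromosome 1, and 1274 bases separate Col4a5 and Col4a6 on chromosome X. Col3a1 and Col5a2 lie 24624 bases apart on chromosome 1. These positions were read from the RefSeq annotation of GRCm38.p6, which paired all 36 genes with a locus.

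The arrays and captures were checked first. The median signal of an array was 81.6 to 127 and its background level 55.1 to 133, where background is the 95th percentile of 117 probe sets for genes of smell and taste receptors, beta-defensins and proteins of hair keratin. For the Gapdh control the 3′ probe set was brighter than the 5′ one by 38.7 to 44.4 times in pairs 1 and 2, but by 7.0 to 17.4 times in pairs 3 and 4, so results are also given within each set of pairs. Of 15 erythroid markers tested, 12 were higher in the erythroid captures and 0 lower (13 and 0 at an unadjusted p under 0.05), with Klf1 and Gata1 among them. Of 18 visceral endoderm markers, 14 were lower and 1, Sox17, higher (15 and 1 unadjusted). Among all genes tested, 6.03% were called higher and 8.87% lower. Both kinds of marker gave signal in both captures: the summed signal of the endoderm markers was 73279 to 107438 in erythroid and 125043 to 194737 in epithelial samples, and that of the erythroid markers 89337 to 166498 and 51940 to 97009.

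Of the 36 collagen genes, 17 lay above background on all 4 arrays of at least 1 cell type, 10 on some arrays and 9 on none. Among all genes measured, 20.9% lay above background on no array. Testing was kept to probe sets at or above the array median on 4 or more of the 8 arrays, which 25 probe sets of 17 genes met. The 19 genes not tested were Col2a1, Col5a3 and Col11a2 among the fibrillar genes, Col4a3, Col4a4 and Col4a6 of type IV, Col8a1, Col10a1, Col9a2, Col9a3, Col12a1, Col19a1, Col20a1, Col22a1, Col7a1, Col17a1, Col25a1, Col15a1 and Col26a1. Their 28 probe sets ranged from 1.51 to 288 and none lay above background on more than 3 arrays. Genes known from cartilage were split: Col2a1, Col9a2, Col9a3, Col10a1 and Col11a2 were too dim to test, while Col9a1 and Col11a1 lay above background on all 8 arrays. Col7a1 and Col17a1, of skin attachment, were too dim to test.

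**Figure D1:**
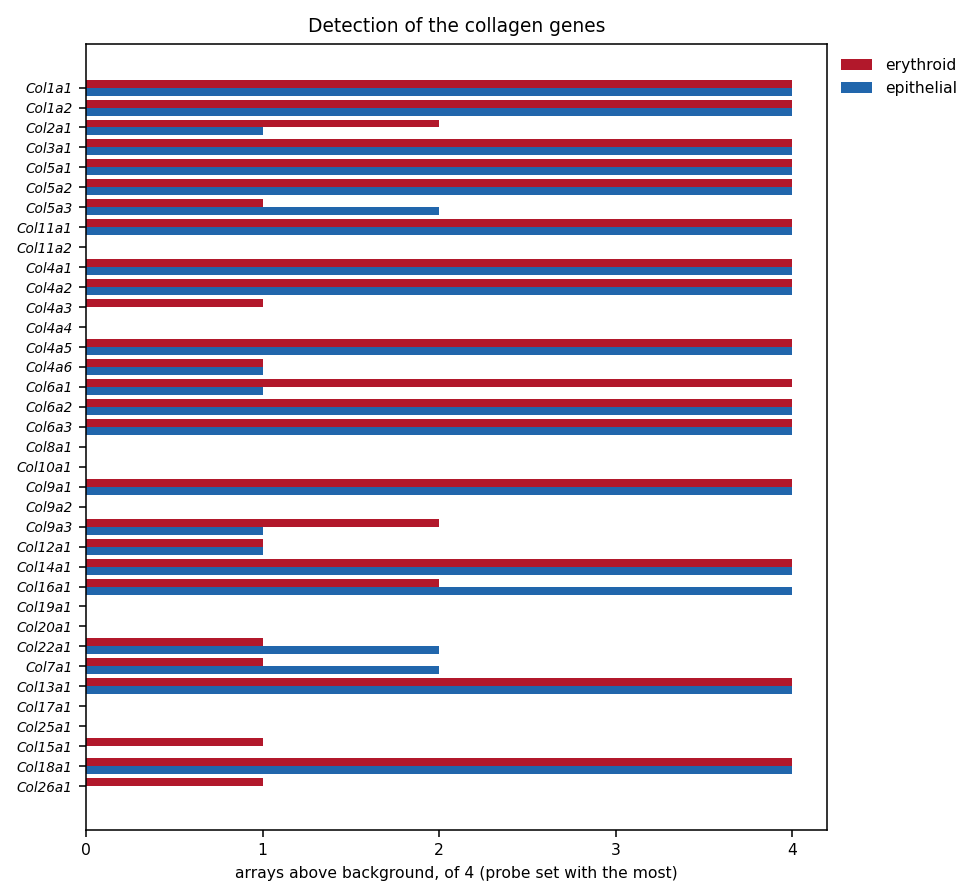
Detection of the 36 collagen genes. The horizontal axis counts the arrays, of 4 erythroid (red) and 4 epithelial (blue), on which the gene's most often detected probe set lay above the array background. A total of 17 genes reached 4 arrays in at least 1 cell type and 9 reached none.

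The comparison asked which collagen genes differ between erythroid captures and the epithelial cells of the same slides. The fibrillar genes Col1a1, Col3a1, Col5a1 and Col5a2 and the type IV gene Col4a5 were higher in the erythroid captures, by 2.29- to 3.09-fold. Of 17 genes tested, 5 were called higher (29.4%), against 6.03% of all 7192 genes tested, and 0 were called lower, against 8.87%. By probe set, 6 of 25 were called higher and 0 lower, against 6.20% and 7.69% of the 11449 tested (limma, Benjamini-Hochberg adjustment over all probe sets, threshold 0.05). At an unadjusted p under 0.05 the counts were 12 higher and 0 lower. Shares of all genes called are given throughout at the adjusted threshold only, so unadjusted counts have no share to be set against. The values of 16 genes lay above 0 and their median was 0.96 on the log2 scale, against -0.01 for all genes. A difference of this kind in captured material cannot tell fewer cells of a type from less RNA per cell. All 5 calls ended without replicate 3, without replicate 4 and without the pair term, where 0 collagen genes were called, and 8 were called without replicate 1. In pairs 1 and 2 alone 0 of 17 were called (1 at an unadjusted p under 0.05), against 3.42% of all genes called higher, and in pairs 3 and 4 alone 12 were higher and 0 lower, against 12.6%.

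**Figure D2:**
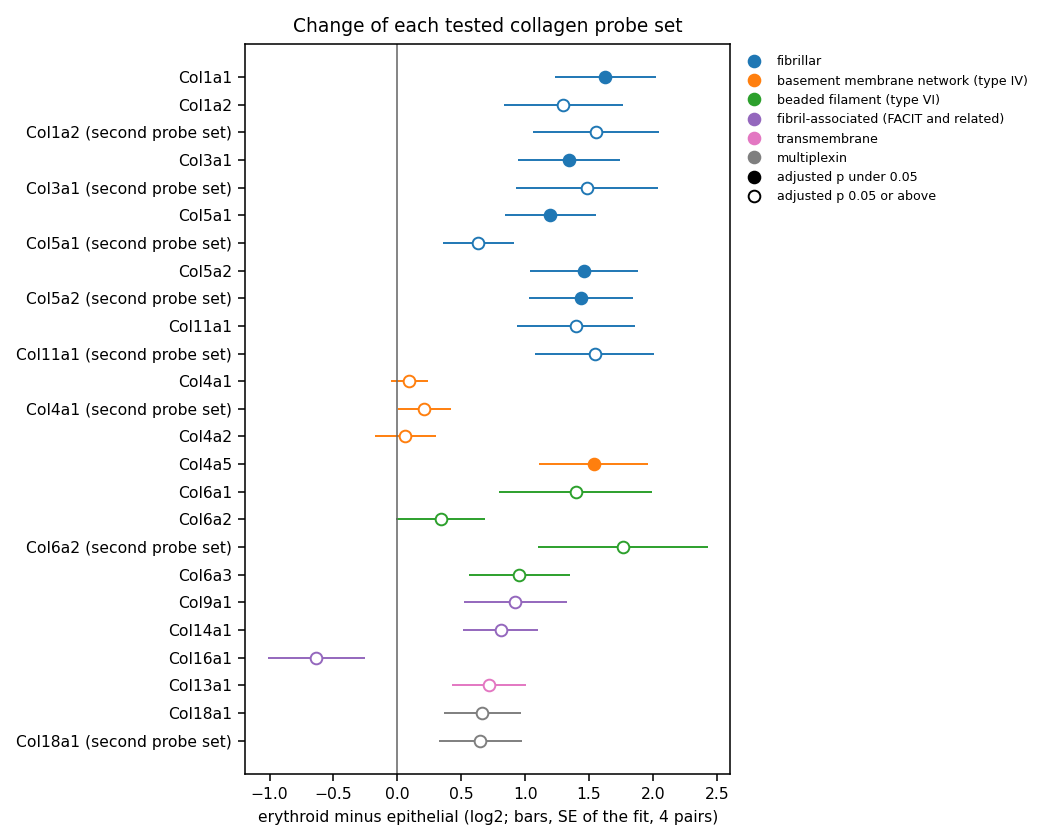
Change of the 25 tested collagen probe sets. The horizontal axis is the log2 difference, erythroid minus epithelial, with bars for the standard error of the fit over 4 pairs. Filled points had an adjusted p under 0.05, and colours give the collagen class. The fibrillar points lie between 0.63 and 1.63, and Col4a1 and Col4a2 between 0.06 and 0.21.

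Type I collagen is the most widespread fibril of connective tissue. The Col1a1 signals in the erythroid captures of pairs 1 to 4 were 2799, 3568, 8130 and 2078, and in the epithelial captures 2210, 2258, 956 and 366. The groups overlap, since the erythroid value of pair 4 lies below the epithelial values of pairs 1 and 2, yet the erythroid sample was the higher in 4 of 4 pairs after normalisation. On the log2 scale Col1a1 rose by 1.63 ± 0.39 (SE over 4 pairs, limma adjusted p = 0.0212), from 1447 ± 940 to 4144 ± 2726 in mean signal (SD, n = 4). A further probe set of Col1a1 lay above background on 1 of 4 arrays of each cell type and was not tested. Its partner chain Col1a2 gave 1999, 2670, 5813 and 6036 in erythroid and 2033, 3003, 1219 and 871 in epithelial captures. The Col1a2 values nearly coincide in pairs 1 and 2 and part widely in pairs 3 and 4, and the difference of 1.30 ± 0.47 did not pass (limma adjusted p = 0.0886, higher in 2 of 4 pairs). Its other probe set gave 1.56 ± 0.49 (limma adjusted p = 0.0597, higher in 3 of 4 pairs).

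Type III collagen, encoded by Col3a1, shares fibrils with type I in elastic tissues. Its brighter probe set read 10322, 13439, 20940 and 12118 in the erythroid captures and 10370, 9505, 4294 and 2148 in the epithelial ones. Only the first epithelial sample reached the range of the erythroid group. Col3a1 rose by 1.34 ± 0.40 (SE, n = 4 pairs, limma adjusted p = 0.0471), with the erythroid sample higher in 4 of 4 pairs. The dimmer probe set gave 1.49 ± 0.55 and did not pass (limma adjusted p = 0.0998, 3 of 4 pairs).

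Type V collagen starts fibrils and sets their width, and its chains Col5a1 and Col5a2 were both called. Col5a1 read 949, 1012, 1917 and 2192 in erythroid and 603, 1035, 622 and 376 in epithelial captures. Its groups overlap through the epithelial sample of pair 2. The rise was 1.20 ± 0.35 (SE, n = 4 pairs, limma adjusted p = 0.0477, 4 of 4 pairs), and a second probe set gave 0.63 ± 0.28 (limma adjusted p = 0.158, 3 of 4 pairs). A further Col5a1 probe set lay above background on no array. Col5a2 read 2593, 3500, 4692 and 4044 in erythroid and 2697, 2529, 823 and 656 in epithelial captures. The epithelial sample of pair 1 lies within the erythroid range, that of pair 2 just below it and those of pairs 3 and 4 far below. Col5a2 rose by 1.46 ± 0.42 (limma adjusted p = 0.0437, 3 of 4 pairs) on this probe set and by 1.44 ± 0.41 on the other (limma adjusted p = 0.0397, 3 of 4 pairs). The third type V gene, Col5a3, was not tested.

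Col11a1, a type XI chain that belongs to the same fibril core family, followed the same arrangement of samples. It read 596, 1039, 1244 and 906 in erythroid and 691, 791, 205 and 78.5 in epithelial captures. Its difference of 1.40 ± 0.46 did not pass (limma adjusted p = 0.0695, 3 of 4 pairs), nor did that of its other probe set at 1.54 ± 0.46 (limma adjusted p = 0.0503). With the arrays centred on their medians it passed (1.35, adjusted p = 0.0338). Of the 9 fibrillar genes on the array, 6 were tested and 4 called higher, against 6.03% of all genes tested. The median of the 6 was 1.37, against -0.01 for all genes.

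**Figure D3:**
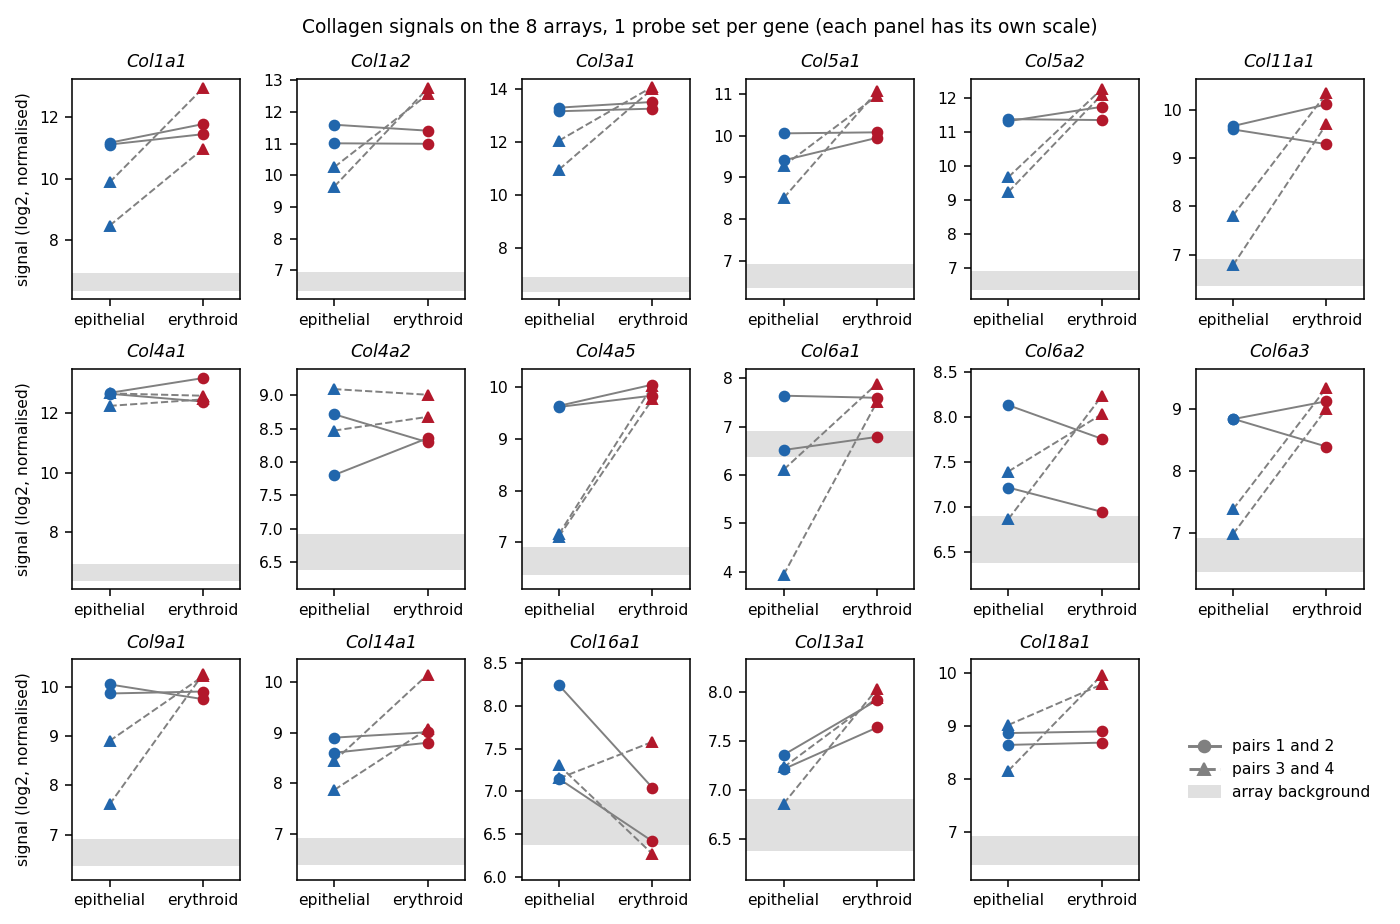
Signals of the 17 tested collagen genes on each array, on the normalised log2 scale. Lines join the epithelial (blue) and erythroid (red) sample of a pair, with circles and solid lines for pairs 1 and 2, triangles and dashed lines for pairs 3 and 4, and a grey band for the range of array backgrounds. The dashed lines are steeper than the solid ones for the fibrillar genes and Col4a5, and also for other genes such as Col6a1, Col6a3 and Col9a1. Those of Col4a1 and Col4a2 are not.

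Type IV genes split. Col4a1 and Col4a2 encode the chains of the ubiquitous basement membrane network and are transcribed from the shared start region given above. Col4a1 read 5576, 10339, 5289 and 5469 in erythroid and 6976, 6365, 4836 and 5997 in epithelial captures, and Col4a2 read 308, 286, 426 and 570 against 186, 417, 346 and 590. The groups overlap fully for both genes, and each was higher in 2 of 4 pairs. The differences were 0.09 ± 0.15 for Col4a1 (limma adjusted p = 0.714) and 0.06 ± 0.24 for Col4a2 (limma adjusted p = 0.891), and both had the opposite sign with the arrays centred on their medians (-0.09 and -0.08). A second Col4a1 probe set gave 0.21 ± 0.21 (limma adjusted p = 0.545, 3 of 4 pairs).

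Col4a5, a chain of the type IV networks known from kidney and smooth muscle basement membranes, differed from its paralogues on the array. Its erythroid signals were 1009, 854, 856 and 1108 and its epithelial signals 722, 767, 117 and 112. The groups do not overlap, which held for 2 of the 17 tested collagen genes, the other being Col13a1, and for 6.22% of all genes tested with the erythroid group higher. The erythroid values are nearly level over the 4 pairs, and the low epithelial samples are those of pairs 3 and 4, whose array backgrounds were 90.5 and 55.1. Col4a5 rose by 1.54 ± 0.43 (SE, n = 4 pairs, limma adjusted p = 0.0375, 4 of 4 pairs). A further Col4a5 probe set, with signals of 29.6 to 172 and overlapping groups, was not tested. It lay above background on 2 erythroid arrays and 1 epithelial array. The neighbour gene Col4a6 lay above background on at most 1 array of each cell type in either probe set, with signals of 6.16 to 134. Col4a3 and Col4a4 were dim as well.

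Type VI collagen has chains from Col6a1, Col6a2 and Col6a3, all of which were tested and 0 called by limma. Col6a3 read 316, 508, 649 and 567 in erythroid and 395, 447, 147 and 94.2 in epithelial captures, a difference of 0.96 ± 0.39 (limma adjusted p = 0.131, 3 of 4 pairs). Col6a1 read 110, 179, 252 and 196 against 75.2, 211, 52.9 and 4.83 and lay above background on 4 erythroid arrays and 1 epithelial array. It met the filter with 3 erythroid arrays and 1 epithelial array at the median, so its inclusion rests on the group in which it is the brighter (1.40 ± 0.60, limma adjusted p = 0.147). The probe sets of Col6a2 disagreed in size. The brighter read 123, 200, 278 and 332 against 123, 285, 149 and 84.9, at 0.34 ± 0.35 (limma adjusted p = 0.561), and the other gave 1.77 ± 0.67 (limma adjusted p = 0.104). The latter also met the filter through 3 erythroid arrays and 1 epithelial array. The brighter is of a design class that can also bind related transcripts.

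Among the collagens that sit on fibrils, Col9a1, Col14a1 and Col16a1 were tested and 0 called by limma. Col9a1 read 915, 796, 1150 and 1309 in erythroid and 850, 1029, 478 and 172 in epithelial captures (0.92 ± 0.40, limma adjusted p = 0.156, 3 of 4 pairs). A further Col9a1 probe set lay above background on 2 arrays of each cell type and was not tested. Col14a1, which binds fibrils through decorin, read 482, 405, 1106 and 598 against 417, 389, 338 and 216 (0.81 ± 0.29, limma adjusted p = 0.0915, 4 of 4 pairs). The separation of Col14a1 is small in pairs 1 and 2 and larger in pairs 3 and 4. A further Col14a1 probe set lay above background on 2 erythroid arrays and 1 epithelial array and was not tested. Col16a1 was the tested member with a value below 0: it read 84.8, 127, 203 and 69.5 against 117, 307, 121 and 129, and the difference of -0.63 ± 0.38 did not pass (limma adjusted p = 0.301, higher in 1 of 4 pairs). The other 6 genes of this class on the array were not tested.

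The remaining tested genes encode a membrane-spanning and a basement membrane zone collagen. Col13a1, which spans the cell membrane at adhesion sites, read 194, 220, 278 and 269 in erythroid and 123, 178, 97.0 and 121 in epithelial captures. Its groups do not overlap, and the difference of 0.72 ± 0.29 did not pass the adjusted threshold (limma adjusted p = 0.128, 4 of 4 pairs). Col18a1, whose C-terminal fragment is endostatin, read 387, 436, 979 and 958 against 342, 457, 267 and 561 (0.66 ± 0.30, limma adjusted p = 0.169, 4 of 4 pairs). A second Col18a1 probe set gave 0.65 ± 0.33 (limma adjusted p = 0.215, 3 of 4 pairs).

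The size of the collagen difference depended on the set of pairs. The median over the 17 tested genes was 0.11 over pairs 1 and 2 but 1.99 over pairs 3 and 4, against -0.03 and 0.01 for all genes tested. At an unadjusted p under 0.05 the interaction count was 13 of 17, for which no share of all genes is given. The adjusted test of the interaction passed for 9 of 17 collagen genes, against 2.00% of all genes tested. These were Col1a1 (0.47 and 2.78 in the 2 sets, limma adjusted p of the interaction 0.0014), Col1a2 (-0.10 and 2.70, 0.000272), Col3a1 (0.16 and 2.53, 0.000272), Col5a1 (0.28 and 2.11, 0.0233), Col5a2 (0.20 and 2.73, 0.000495), Col11a1 (0.07 and 2.72, 0.00335), Col4a5 (0.32 and 2.76, 0.00435), Col6a3 (-0.08 and 1.99, 0.0302) and Col9a1 (-0.13 and 1.98, 0.0186). All 5 genes called higher over the 4 pairs are among them. Col4a1 at 0.12 and 0.07 and Col4a2 at 0.07 and 0.06 did not pass (limma adjusted p of the interaction 0.962 and 0.997).

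**Figure D4:**
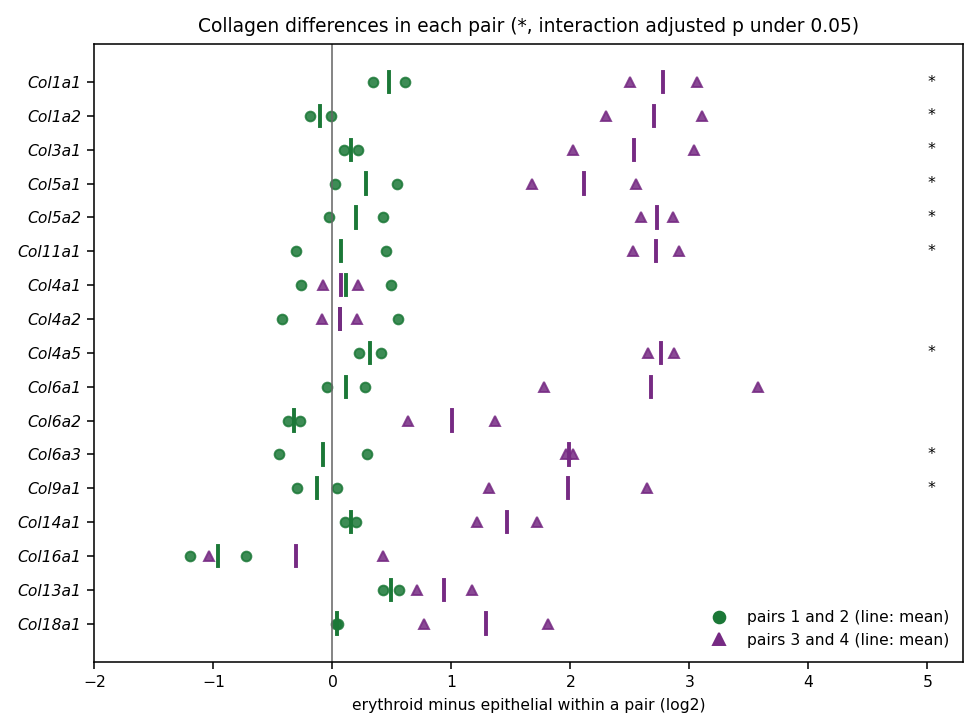
Difference between the erythroid and epithelial sample of each pair for the 17 tested collagen genes, on the log2 scale. Green circles are pairs 1 and 2, purple triangles pairs 3 and 4, vertical ticks their means, and an asterisk marks an interaction with adjusted p under 0.05. For Col1a1 the means are 0.47 and 2.78, and for Col4a1 0.12 and 0.07.

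The 2 sets of pairs differed within both cell types. The epithelial signals of pairs 3 and 4 both lay below those of pairs 1 and 2 for 11 of 17 collagen genes, against 33.5% of all genes tested. The erythroid signals of pairs 3 and 4 both lay above those of pairs 1 and 2 for 10 of 17, against 26.6%. The median shift of the collagen genes between sets was -1.35 in the epithelial captures and 0.51 in the erythroid ones, against -0.06 and -0.01 for all genes. For Col4a5 the shift was -2.50 in epithelial and -0.05 in erythroid captures, and for Col1a1 -1.96 and 0.35. Col1a2 and Col5a1 shifted in both, by -1.35 and 1.45 and by -0.84 and 0.99, and Col18a1 by -0.17 in epithelial and 1.09 in erythroid captures. The shifts were not tested. These sets are not groups of the study, each holds 2 pairs, and they were chosen with earlier results of these data known. The same limits apply to the interaction test above.

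Markers of connective tissue cells were read on the same arrays. Of 11 mesenchyme markers tested, 4 were higher in the erythroid captures and 0 lower (7 and 0 at an unadjusted p under 0.05; 6.03% and 8.87% of all genes tested were called): the receptor Pdgfrb at 1.50 ± 0.32, the transcription factor Zeb1 at 1.54 ± 0.30, Vim at 1.16 ± 0.27 and the cadherin Cdh11 at 1.31 ± 0.36. The summed signal of the 18 mesenchyme markers in erythroid captures was 18803 and 17828 for pairs 1 and 2. For pairs 3 and 4 these markers summed to 14146 and 12765. Their epithelial sums were 14133 and 10968 for pairs 1 and 2 but 3985 and 3415 for pairs 3 and 4. Over the tested markers the median difference was 0.38 for the former set and 1.92 for the latter, and Prrx1, Hand2 and Thy1 lay above background on no array.

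Other cell types were read the same way. Among all genes tested, 6.03% were called higher and 8.87% lower. The endothelial, leukocyte and parietal endoderm counts given here lay near these shares. Their median differences over the tested markers were 0.54, 0.51 and -0.07, against -0.01 for all genes. Values above 0 numbered 13 of 14, 5 of 7 and 4 of 10. The endothelial median was 0.07 over pairs 1 and 2 and 0.90 over pairs 3 and 4. Among 6 tested smooth muscle and mesothelium markers 3 were higher and 0 lower (4 and 0 unadjusted), with sums over all 15 measured of 9059 to 11825 and 3591 to 6880. The epithelial sums were 5602 and 6880 for the first set of pairs and 3591 and 3828 for the second. Cnn1, Des and Tbx18 lay above background on no array. Of 14 endothelial markers 1, Tek, was higher and 0 lower (5 and 0 unadjusted), with sums over 18 of 4501 to 8632 and 2365 to 4560 (epithelial, 4103 and 4560 against 2365 and 3024 by set), and Pecam1 and Tie1 lay above background on no array. Megakaryocyte markers gave 3 of 7 higher and 0 lower (4 and 0 unadjusted), with sums over 9 of 5576 to 18950 and 1825 to 3066 (epithelial, 2834 and 3066 against 1825 and 2217 by set), and leukocyte markers 0 of 7 higher and 1 lower (2 and 1 unadjusted), with sums over 16 of 2066 to 3182 and 1446 to 2094. Parietal endoderm markers, among them the basement membrane genes this cell layer makes in bulk, gave 1 of 10 higher and 1 lower (1 and 2 unadjusted), with sums over 13 of 23787 to 33489 and 24286 to 29342. The higher one, Vim, also stands in the mesenchyme list and was counted there. By set, the epithelial sums of the leukocyte markers were 1984 and 2094 against 1933 and 1446. Those of the erythroid markers were 97009 and 91683 against 82358 and 51940. The part of these cell types in the collagen values was not tested.

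The machinery that builds collagen inside the cell gave no calls in the main fit. Of 17 tested modifying enzymes and chaperones, 0 were called by limma in either direction (2 higher and 2 lower at an unadjusted p under 0.05). Among all genes 6.03% were called higher and 8.87% lower, shares at which few of 17 would be called. The median was -0.14, against -0.01 for all genes. The deposited scaling, both centrings and the mean of probe sets each gave 1 lower call. In pairs 3 and 4 alone 3 were higher and 1 lower. That fit called 12.6% of all genes higher and 26.7% in either direction. Serpinh1, the chaperone that binds the folded triple helix, was at 0.02 ± 0.19 with mean signals of 4369 and 4057. The prolyl hydroxylase subunits P4ha1, P4ha2 and P4hb, which stabilise the helix, were at 0.23 ± 0.34, 0.41 ± 0.35 and -0.35 ± 0.13. The lysyl hydroxylase Plod2, which prepares chains for cross-linking, was at 1.16 ± 0.39 (limma adjusted p = 0.0704, 3 of 4 pairs), which averaged 0.24 over pairs 1 and 2 but 2.08 over pairs 3 and 4. Sparc, a collagen chaperone and matrix protein that also stands in the parietal endoderm list, was at 0.35 ± 0.22.

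Extracellular processing was covered by 5 tested genes, of which 1 was called higher and 0 lower (2 and 0 unadjusted), with 6.03% and 8.87% called among all genes. Lox, the enzyme that cross-links collagen fibrils, read 293, 468, 766 and 567 in erythroid and 250, 222, 244 and 86.7 in epithelial captures. The erythroid samples all lie above the epithelial ones, and Lox rose by 1.25 ± 0.32 (limma adjusted p = 0.0258, 4 of 4 pairs), a call that ended when pair 2, 3 or 4 was left out (limma adjusted p = 0.0626, 0.101 and 0.156). Pcolce, which speeds removal of the C-terminal propeptide, was at 1.57 ± 0.53 (limma adjusted p = 0.0719, 3 of 4 pairs), with 0.09 over pairs 1 and 2 but 3.05 over pairs 3 and 4 (limma adjusted p of the interaction 0.00478). Of the genes that cleave the propeptides, Bmp1, Tll1 and Tll2 were measured and too dim to be tested.

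Proteins that decorate collagen fibrils gave 1 of 13 tested genes higher and 0 lower (6 and 0 unadjusted), at a median of 0.72. The share called is near the 6.03% of all genes called higher. Lum, a proteoglycan that spaces fibrils, read 2340, 3814, 5854 and 4998 in erythroid and 2103, 1916, 1453 and 710 in epithelial captures. Its groups do not overlap, and it rose by 1.56 ± 0.37 (limma adjusted p = 0.0194, 4 of 4 pairs), a call that ended when pair 3 or pair 4 was left out (limma adjusted p = 0.0946 and 0.0876). Dcn, a fibril-binding proteoglycan, was at 1.11 ± 0.37 (limma adjusted p = 0.0711, 3 of 4 pairs). Fn1, the fibronectin on which collagen fibrils assemble, was at 0.05 ± 0.21 with mean signals of 4015 and 4053.

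Partners of type IV collagen in basement membranes gave 1 of 11 tested genes higher and 1 lower, at a median of 0.0046 (2 and 1 unadjusted). Both shares are near those of all genes, 6.03% and 8.87%. Nid1, which links laminin to type IV collagen, read 1298, 3238, 2295 and 2326 in erythroid and 1635, 1064, 654 and 433 in epithelial captures. Only pair 1 has the epithelial sample above the erythroid one, and Nid1 rose by 1.40 ± 0.36 (limma adjusted p = 0.0270, 3 of 4 pairs), with no call when pair 2, 3 or 4 was left out (limma adjusted p = 0.0762, 0.113 and 0.15). Agrn, the heparan sulfate proteoglycan agrin, read 95.5, 132, 324 and 305 against 267, 523, 1334 and 1822 and fell by 2.10 ± 0.23 (limma adjusted p = 0.0011, lower in 4 of 4 pairs). The laminin chains Lama1 and Lamb1 were at -0.07 ± 0.40 and -0.07 ± 0.14 and the proteoglycan Hspg2 at 0.86 ± 0.34 (limma adjusted p = 0.119, 4 of 4 pairs), while Lamc1 was too dim to be tested.

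Receptors for collagen gave 0 of 4 tested genes higher and 1 lower (1 and 1 unadjusted), where 6.03% and 8.87% of all genes were called. The values of 3 of the 4 lay above 0, with a median of 0.43, against -0.01 for all genes. Ddr1, a receptor tyrosine kinase of epithelia that collagen activates, read 5216, 5681, 4189 and 4803 in erythroid and 8079, 7431, 8049 and 7766 in epithelial captures. Its groups do not overlap, and it fell by 0.66 ± 0.13 (limma adjusted p = 0.00695, lower in 4 of 4 pairs). The call of Ddr1 was lost on the mean of its probe sets (-0.14, limma adjusted p = 0.651) and without probe sets of designs that can bind related transcripts (-0.86, 0.199). Its relative Ddr2, found on mesenchymal cells, lay above background on no array.

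Among 10 tested genes of collagen breakdown, 0 were called higher and 3 lower (1 and 3 unadjusted), against 6.03% and 8.87% of all genes. The values of 6 of the 10 lay above 0, and their median was 0.17, against -0.01 for all genes. In pairs 3 and 4 alone 3 were called higher and 3 lower. That fit called 12.6% of all genes higher and 26.7% in either direction. Ctsl and Ctsb, lysosomal proteases, fell by 1.16 ± 0.22 and 0.66 ± 0.16, and Pepd, which splits the proline dipeptides left from collagen, fell by 1.10 ± 0.21 (limma adjusted p = 0.0068, 0.0232 and 0.0079). All 3 were lower in 4 of 4 pairs. The call of Pepd ended without pair 4 (limma adjusted p = 0.0645), and that of Ctsb without pair 2 or pair 3 (0.0839 and 0.0986). Pepd read 457, 512, 726 and 612 in erythroid and 787, 949, 1682 and 1795 in epithelial captures, with no overlap. The gelatinase Mmp2 was at 0.65 ± 0.32 (limma adjusted p = 0.195, 3 of 4 pairs) and the inhibitor Timp2 at 0.87 ± 0.27 (limma adjusted p = 0.0534, 4 of 4 pairs).

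**Figure D5:**
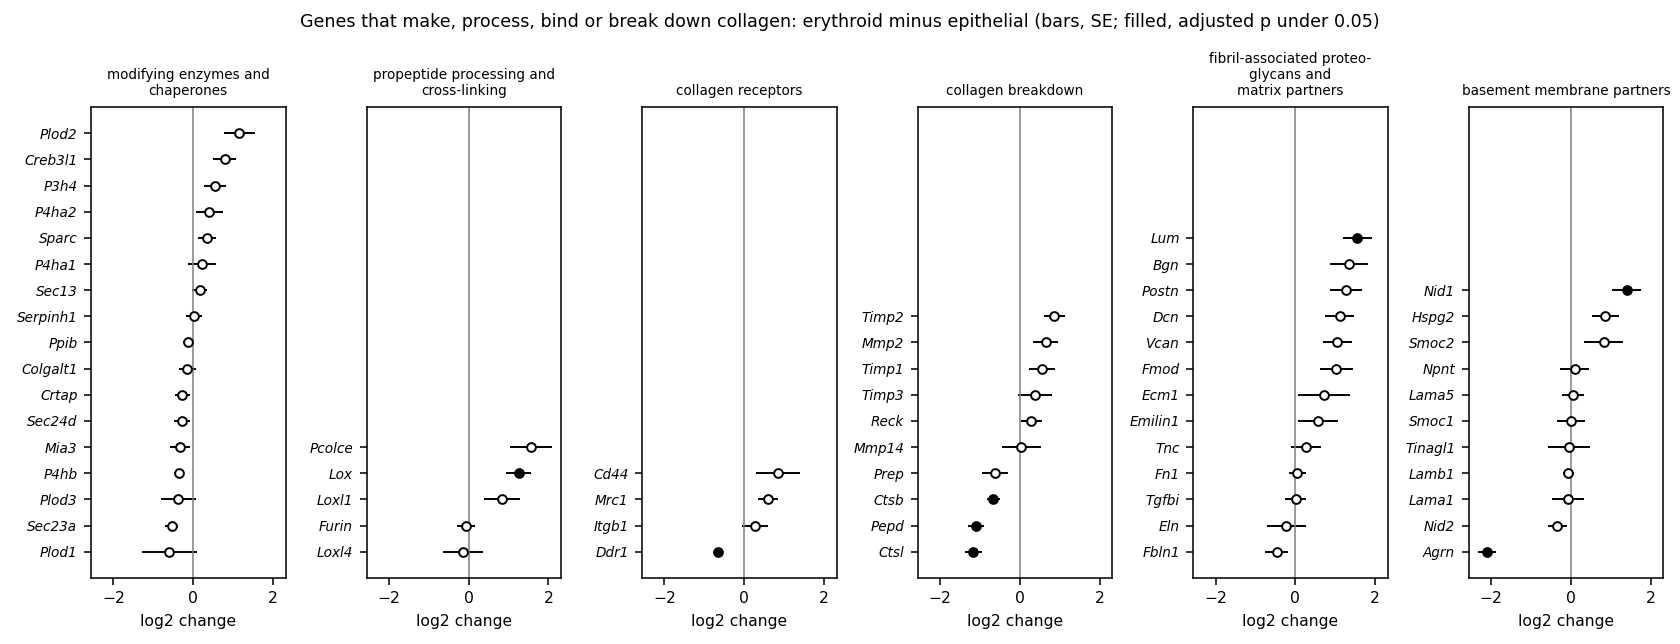
Change of tested genes that make, process, bind or break down collagen, in 6 lists. The horizontal axis is the log2 difference, erythroid minus epithelial, with bars for the standard error over 4 pairs, and filled points had an adjusted p under 0.05. The called genes are Lox, Lum and Nid1 above 0 and Agrn, Ddr1, Ctsl, Ctsb and Pepd below 0.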

How the data were processed

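The values were the authors' deposited table, with 1 intensity per probe set and array on a linear scale, from 8 arrays of yolk sac captures. GCOS, MAS5 and affy are named, without versions, in the submitters' processing notes. On every array the mean was 500 once the top and bottom 2% were set aside. Of 22626 probe sets that are not controls, 20380 had 1 gene in the platform annotation.

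Before log2, 8.14 was added to every value (their 10th percentile), and the arrays were quantile normalised without the 64 control probe sets. The 11449 probe sets that reached their array's median on at least 4 arrays were fitted in limma 3.58.1 (R 4.3.3; lmFit, then eBayes with its trend option), the model holding pair and cell type, leaving 3 residual degrees of freedom. Differences are erythroid minus epithelial, two-sided, adjusted by Benjamini-Hochberg over all probe sets. Where a gene had several tested probe sets, the brightest on average stood for it. The interaction test added a term for pairs 3 and 4.

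The number of arrays, 4 per cell type, limits the precision. Per the labels, pairs share slides, and same-pair deviations from the group means correlated at 0.32 to 0.54. The fit was tested on simulated data. All 36 collagen genes are accounted for, those called or above background on all 4 arrays of a cell type with their values. From each other list, up to 3 called genes per direction and 14 genes set by name were named. Others were chosen after their values were seen. The members, lists and sets of pairs were chosen with earlier results of these data known. Protein features were not analysed here. Sensitivity of the named partner genes was added after seeing the data. Alternatives covered the offset, scaling, filter, pair term, variance model, probe set choice and left-out pairs.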

Additional observations from a re-analysis of the deposited data

Results flagged for a closer look

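For 9 collagen genes the difference between captures in pairs 3 and 4 exceeded that in pairs 1 and 2 by an interaction that passed its test. The excess on the log2 scale was 2.31 for Col1a1, 2.80 for Col1a2, 2.38 for Col3a1, 1.83 for Col5a1, 2.53 for Col5a2, 2.65 for Col11a1, 2.45 for Col4a5, 2.07 for Col6a3 and 2.11 for Col9a1. The ratio of 3′ to 5′ control signal also parted these sets of pairs. So did the summed mesenchyme, smooth muscle and mesothelium, endothelium, megakaryocyte, erythroid and leukocyte markers of the epithelial captures, all lower in pairs 3 and 4. The summed visceral and parietal endoderm markers of the epithelial captures did not part them. The part of the ratio and of these cell types in the excess was not tested.

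In 2 of 51 groups of 4 values, 1 sample stood far from the others, and chance alone gives about 1 in 20 such groups. The epithelial sample of pair 2 was high for Col16a1, at 8.24 on the normalised log2 scale against 7.15 to 7.30 (gap over range 0.857). The epithelial sample of pair 3 was low for Col4a1, at 12.23 against 12.64 to 12.67 (0.934).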

How the results depend on the processing

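The count of 5 collagen genes called higher was 3 with an offset of 1, 2 with no filter on dim probe sets, 1 with robust eBayes, 0 with no variance trend, 2 on the mean of a gene's probe sets, 0 in pairs 1 and 2 alone and 12 in pairs 3 and 4 alone. It ran from 0 to 8 with 1 pair left out and was 0 without the pair block, and the cause of these changes was not tested. No collagen gene was called lower by limma under any alternative run. Of the 303 values of single collagen genes under alternatives, 253 kept their side of the threshold, 38 lost a call, 12 gained one and 0 called values changed sign. Only the 5 genes called in the main fit had a call to lose, so all 38 losses fell on them. Most of the 253 came from genes not called in the main fit. Col1a1 kept its call under both filters, each offset and scaling and robust eBayes. Over the whole table, 710 probe sets were called higher and 881 lower. These counts were 160 and 285 without the pair block, 180 and 339 with no variance trend, 376 and 520 once probe sets of the x, s and a designs were dropped, and 1402 and 1457 in pairs 3 and 4 alone. Pairs 1 and 2 alone gave 543 lower, and with 1 pair left out the counts ran from 202 to 690 higher and from 333 to 831 lower. Centring each array on its median gave 455 higher, which moved the share of higher calls from 44.6% to 29.3% and the median of all genes to -0.14. The count of interactions was 9 under the deposited scaling too, in the same genes. The mean over probe sets gives no count of probe sets. Without the pair block the calls of Lox, Lum, Nid1, Agrn, Ctsl, Ctsb and Pepd were lost as well, and that of Ddr1 held, in runs added after seeing the data. With no variance trend Lox, Lum, Nid1, Ctsl, Ctsb and Ddr1 lost theirs (adjusted p = 0.0741 to 0.123) and Agrn and Pepd did not, and Ctsb lost its call on the mean of probe sets (0.0646). Fits of 2 pairs have 1 residual degree of freedom, and are not comparable in count with the fit of 4 pairs. With the background set at the median plus 3 median absolute deviations, 16 collagen genes lay above it on all 4 arrays of a cell type, Col6a1 not among them.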
